A study of Mus musculus with 4 samples.

Results

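The cells described here were 387 of 16280 kept barcodes of mouse bone marrow, chosen one by one from their UMI (unique molecular identifier) counts. Kept barcodes held 500 or more UMIs and 200 or more genes, with no more than 10% of the UMIs from mitochondrial genes. A member had at least 1 UMI of Flt3 and of Cd34, no UMI of Dntt, Mki67, Klf1, Pf4, Cd79a, Siglech or F13a1, under 20 Mpo UMIs per 10000, and at least 1 UMI of at most 1 of the stem cell genes Hlf, Procr, Mecom and Fgd5. The members are called Flt3 Cd34 cells without Mki67 here, because the absence of a Mki67 UMI did not make them free of cell cycle transcripts. They numbered 109 and 129 in the 2 Idh1-R132H libraries, and 87 and 62 in the 2 Idh1-WT libraries.

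The enzyme Idh1 turns isocitrate into 2-oxoglutarate in the cytosol, and its R132H form makes 2-hydroxyglutarate. Donor marrow cells of the Idh1-R132H group had recombined, after 5 days of tamoxifen, an EYFP reporter and 1 heterozygous mutant Idh1 allele. Those of the Idh1-WT group had recombined the EYFP reporter after the same tamoxifen course. EYFP+ lineage-negative cells taken 2 weeks later were given to irradiated mice with no supporting marrow, and chimeric marrow was collected after 16 weeks. From each mouse 4000 cells each of 3 gates were pooled in 1 tube, namely CD45.1+ total cells, LSK cells (lineage-negative, Sca1+, cKit+) and LK cells (lineage-negative, cKit+), all EYFP+, and 3′ ends were sequenced. The labels name neither the driver of the recombinase nor whether separate donors were used within a group, so that p-values measure the spread between these libraries, which may be technical.

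Multipotent progenitors lie between the long-term stem cell and the first committed progenitors, and have lost most capacity to renew themselves. Flt3, the receptor for Flt3 ligand, appears on them as stem cell genes fall, and the fraction with most Flt3 leans toward lymphoid and myeloid fates and away from platelets and red cells. Cd34, a sialomucin of the progenitor surface, stays on through this step. In healthy marrow these cells are often in cycle, unlike the long-term stem cell, which is mostly quiescent.

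The libraries held 47025425 and 53387528 UMIs in Idh1-R132H 1 and 2, and 56353466 and 40364701 in Idh1-WT 1 and 2. Members had median counts of 7904 and 6875 UMIs in the Idh1-R132H libraries and 8027 and 6948.5 in the Idh1-WT libraries, with a range over cells of 1253 to 23981. Summed over members, the profiles held 875904 and 955433 UMIs in Idh1-R132H and 834933 and 464040 in Idh1-WT. The kept barcodes of 2 libraries coincided 459 times over the 6 pairs, of which 345 lay between Idh1-R132H 1 and Idh1-WT 1. No barcode was a member in 2 libraries, and 7 members had a barcode that was kept in another library, none of them in that pair. Every library held both cells with Xist and cells with Y-linked transcripts. Members with a Xist UMI and no Y-linked UMI made up 51.4% and 38.8% in Idh1-R132H 1 and 2, against 79.3% and 51.6% in Idh1-WT 1 and 2, so that Idh1-WT 1 stood apart. The part of this mix in the results was not tested, but the gene test was run again in those members alone, and its main differences are given below.

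The rule acted on 2352 kept cells with Flt3 and Cd34 UMIs, and 16.5% of them were members. Of the 2352 cells, 1003 had a Mki67 UMI, 615 had at least 2 of the stem cell genes, 611 had Dntt, 511 were at or over the Mpo limit, 432 had Pf4 and 368 had F13a1. Klf1, Cd79a and Siglech were found in 76, 57 and 9 of them. The member with most Mpo had 19.6 UMIs per 10000, and the nearest cell left out on that count alone had 20.9. A single Flt3 UMI carried 279 members (72.1%), and 248 members (64.1%) had 1 of the stem cell genes. Membership so rests on very few molecules, and a cell sequenced deeper has more chances to show an excluded gene.

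Against all other kept cells, members carried the surface and transcription factor genes of early progenitors. Of the 10 multipotent progenitor markers outside the rule, 8 had a higher CPM (UMIs of the gene, scaled to the total UMIs of the summed profile) in members, and all 6 such stem cell markers did. Of the stem cell markers, Hoxb5, Ctnnal1, Slamf1 and Gprasp2 had only 7, 7, 10 and 14 UMIs over all members. Hoxb5 (2.32 CPM in members, 2.28 in others), Ctnnal1 (2.04 and 1.95) and Slamf1 (3.35 and 2.75) were barely above other cells. Cells and genes were chosen together by UMI counts, so these levels are a description and carry no test. Ly6a, which encodes the Sca1 antigen, had 168 and 234 CPM in the Idh1-R132H members and 137 and 200 in the Idh1-WT members, against a mean of 63.3 in other kept cells. Cd27, a receptor of the TNF family on multipotent cells, had 203 and 209 CPM in Idh1-R132H members and 169 and 213 in Idh1-WT members, against 86.5 in other cells. Hoxa9, a homeobox factor of stem and progenitor cells, had 82.2 and 75.4 CPM in Idh1-R132H members and 74.3 and 99.1 in Idh1-WT members, against 35.5 in other cells. In each of these 3 genes every library's members lay above the mean of the other cells, and the genotypes overlapped. Il6ra, the interleukin 6 receptor, was among the markers not above other cells (6.86 CPM in members, 13.8 in others).

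Among the 2105 genes with at least 50 CPM in the members of every library, Flt3 had the highest ratio of members to other cells, as the rule required. After it came Gm5111, Otos, Adgrl4, Ly6a, Rtp4, Myl10, Gcnt2 and Gpr171, at ratios of the means over libraries between 2.84 and 3.52. Ctla2a, a cysteine protease inhibitor, had 765 and 727 CPM in Idh1-R132H members and 608 and 623 in Idh1-WT members, against 275 in other cells. Angpt1, the ligand of the Tie2 receptor, had 95.9 and 115 CPM in Idh1-R132H members and 97.0 and 121 in Idh1-WT members, against 44.5 in other cells. Sox4, a transcription factor of early lymphoid and myeloid cells, had 282 and 327 CPM in Idh1-R132H members and 271 and 241 in Idh1-WT members, against 122 in other cells. The genotypes overlapped in Angpt1. In Ctla2a and Sox4 both Idh1-R132H libraries lay above both Idh1-WT libraries, as in 18.0% of the genes tested, and neither passed the test given below. Myl10 was uneven within each group, with 392 and 164 CPM in Idh1-R132H members and 944 and 183 in Idh1-WT members. In cells of the rule with at least 2 stem cell genes, Ly6a, Ctla2a, Angpt1 and Sox4 had mean CPM of 210, 777, 107 and 350. In those with Dntt the means were 148, 457, 54.9 and 328, against 185, 681, 107 and 280 in members. Cd27 and Hoxa9 had 176 and 80.9 in stem-gene cells, 213 and 107 in Dntt cells, and 199 and 82.7 in members. Cells with Mki67 or at or over the Mpo limit had lower means for each. High levels of these genes were so not particular to members.

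**Figure D1:**
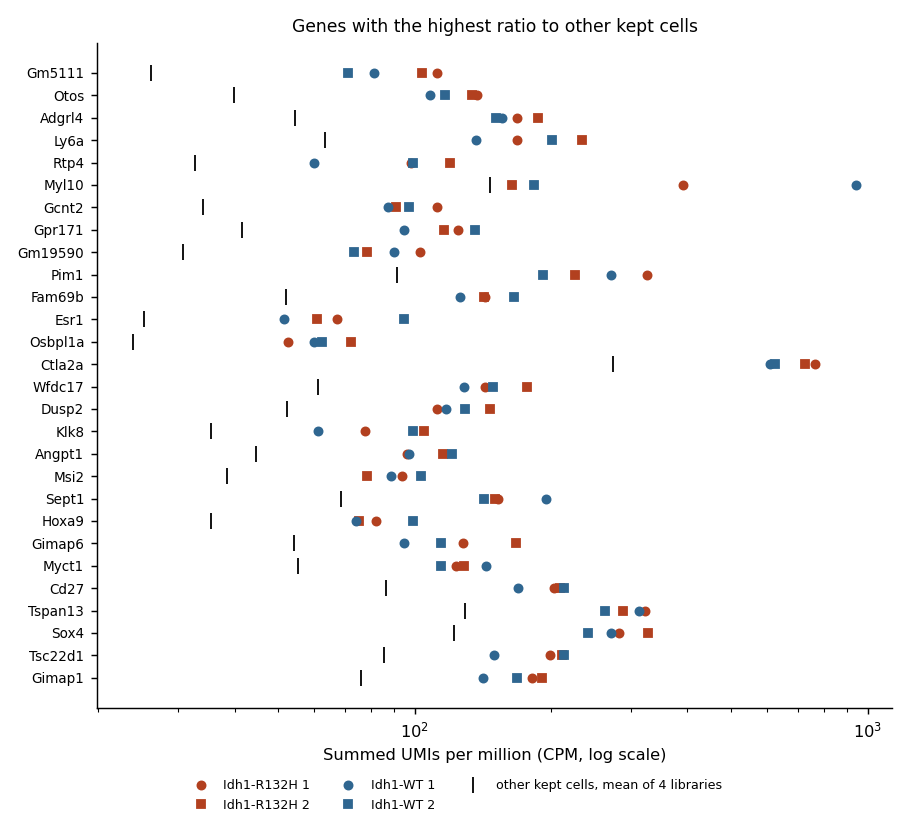
CPM of the leading genes outside the rule in the members of each library (red for Idh1-R132H, blue for Idh1-WT), with the mean of all other kept cells as a black tick, on a log axis. The members of all 4 libraries lie to the right of the other cells for these genes. The ratios of the means over libraries run from 2.24 for Gimap1 to 3.52 for Gm5111 among genes outside the rule. Single libraries can lie closer, as for Myl10 in Idh1-R132H 2, at 164 CPM against 146 in other cells.

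Markers of other cell types were low in members. None of 12 neutrophil, 10 B cell, 10 T or NK cell and 11 monocyte markers was above the other cells. Il7r, Rag1, Pax5 and Ms4a1 had no UMI in any member, and neither had Cd3e, Cd8a, Cd28 and Vcan. In the erythroid set Car2, carbonic anhydrase 2, was higher (797 CPM in members, 523 in others). The 12 neutrophil markers summed to 2496 and 7352 CPM in Idh1-R132H 1 and 2 and to 4600 and 2739 CPM in Idh1-WT 1 and 2, so their level varied over libraries within each group.

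Related cells from the same libraries differed in the genes beside the one that set them apart. With every cell thinned to 1000 UMIs, Satb1, a chromatin organiser of lymphoid progenitors, was seen in 4.13% of members and 9.74% of cells that met the same rule but had Dntt. Before thinning the values were 21.4% of members and 51.0% of the Dntt cells, at median depths of 7460 and 8983.5 UMIs. As a background, 8.17% of the Retnlg-high cells (neutrophils, median 1934.5 UMIs) had a Satb1 UMI before thinning and 4.02% after it, so the thinned share in members is near background. Irf8, a factor of monocyte and dendritic lineages, was seen in 15% of members and 39.3% of Dntt cells before thinning, and in 5.56% of Retnlg-high cells. After thinning the shares were 3.10% of members, 10.8% of Dntt cells and 2.23% of Retnlg-high cells, so that members were near background here too. Wfdc17 was at 149 CPM in members and 407 CPM in the Dntt cells. These differences between classes of cells carry no test.

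The members were not free of cell cycle transcripts. The 22 S phase genes summed to 27.8 and 23.9 UMIs per 10000 in Idh1-R132H members and 29.2 and 23.1 in Idh1-WT members. In cells that met the rule but had Mki67 the sums were 36.0 and 28.1 in Idh1-R132H and 33.0 and 26.1 in Idh1-WT. In Retnlg-high cells they were 8.65 and 7.26 in Idh1-R132H and 8.50 and 6.71 in Idh1-WT. The S phase level of members thus lay near that of the Mki67 cells and well above that of neutrophils in every library. The 21 genes of G2 and M phase without Mki67 differed from this, with 8.97 and 9.16 UMIs per 10000 in Idh1-R132H members and 12.8 and 7.89 in Idh1-WT members. The Mki67 cells had 33.4 and 41.6 in Idh1-R132H and 37.0 and 49.3 in Idh1-WT, and Retnlg-high cells had 10.1 and 6.79 in Idh1-R132H and 6.93 and 5.77 in Idh1-WT. Members so lay far below the Mki67 cells and near the neutrophils, below them in Idh1-R132H 1 and above them in the other libraries. Top2a, the topoisomerase of S to M phase, was seen in 34.4% of members, 90.2% of the Mki67 cells (median 12267.5 UMIs) and 5.11% of Retnlg-high cells, and after thinning to 1000 UMIs in 7.24%, 28.7% and 1.66%. Pcna, the clamp of the replication fork, was seen after thinning in 18.6% of members, 24.7% of the Mki67 cells and 2.23% of Retnlg-high cells. The lack of Mki67 was set by the rule, and the gap in G2 and M phase genes is to cells chosen for Mki67, so it is a description. Members with no UMI of Top2a, Cdk1 or Ccnb1 were 47 of 109 and 75 of 129 in Idh1-R132H. In Idh1-WT they were 36 of 87 and 30 of 62. S phase genes were at a level shared with the related cells. Whether they were in or out of cycle was not tested.

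**Figure D2:**
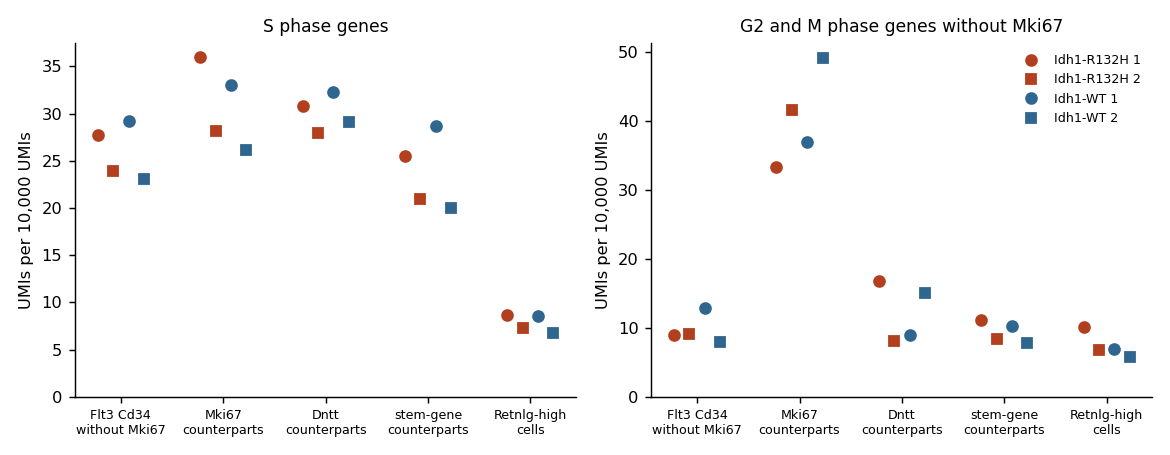
Summed UMIs per 10000 of the S phase genes and of the G2 and M phase genes, by library, in members, in cells of the same rule with Mki67, with Dntt or with at least 2 stem cell genes, and in Retnlg-high cells. Members reach 23.1 to 29.2 for S phase genes, against 6.71 to 8.65 in Retnlg-high cells, and 7.89 to 12.8 for G2 and M phase genes, against 33.4 to 49.3 in Mki67 cells.

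Genes were ranked by the lowest of their library values of spread over members, and a few abundant transcripts led. A gene that was uneven in only some libraries, such as one held by a single cell, ranks low in this order. With each cell thinned to 3000 UMIs, the ratio of variance to mean over members (1 for pure counting) ranked first for Hist1h2ap, a histone gene of S phase. It was 29.1 and 27.6 in Idh1-R132H and 26.4 and 18.5 in Idh1-WT. Malat1, a nuclear RNA, had 15.4 and 10.0 in Idh1-R132H and 13.2 and 13.3 in Idh1-WT, and Actb had 10.8 and 8.54 in Idh1-R132H and 9.30 and 11.7 in Idh1-WT. The tubulin and chromatin genes Tuba1b, Stmn1, Hmgb2, Tubb5 and H2afz followed, with lowest library values of 3.4, 2.93, 2.55, 2.50 and 2.42. By the same ranking Wfdc17 came first among genes of low mean, at 6.88 and 2.64 in Idh1-R132H and 4.36 and 5.54 in Idh1-WT. These spreads are a description, and the histone, tubulin and chromatin genes among them are ones that dividing cells use.

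Members made up a larger share of the kept cells in the Idh1-R132H libraries. The shares were 2.84% (exact binomial 95% interval 2.33 to 3.41) and 2.91% (2.44 to 3.45) in Idh1-R132H, against 1.93% (1.55 to 2.38) and 1.77% (1.36 to 2.26) in Idh1-WT. The groups did not overlap, with means of 2.87% ± 0.0530 in Idh1-R132H and 1.85% ± 0.115 in Idh1-WT (SD, n = 2 libraries each), a ratio of 1.55. The two-sided exact permutation test gave p = 0.333, the smallest that 2 libraries against 2 can give, so the difference cannot pass a threshold of 0.05. Intervals cover counting error only.

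The wider set of cells with Flt3 and Cd34 UMIs was also larger, with 15.8% ± 0.837 of kept cells in Idh1-R132H and 12.9% ± 1.30 in Idh1-WT. Within that set members made up 18.6% and 17.7% in Idh1-R132H, against 14.0% and 14.8% in Idh1-WT, a ratio of 1.26 with no overlap (exact permutation p = 0.333). Cells of the rule with Mki67 made up 1.13% ± 0.131 of kept cells in Idh1-R132H and 1.00% ± 0.124 in Idh1-WT, with overlap. Those with at least 2 stem cell genes made up 1.18% ± 0.240 in Idh1-R132H and 1.14% ± 0.201 in Idh1-WT, also with overlap. Cells with Dntt made up 1.42% ± 0.0964 in Idh1-R132H and 0.989% ± 0.174 in Idh1-WT, with no overlap. Those at or over the Mpo limit made up 0.625% ± 0.0740 in Idh1-R132H and 0.414% ± 0.0200 in Idh1-WT, a ratio of 1.51 with no overlap. The sort pooled equal numbers of cells of 3 gates, which can set such shares. Cells with a Kit UMI were 34.9% ± 1.20 of kept cells in Idh1-R132H and 31.1% ± 1.01 in Idh1-WT, and among them the members' ratio was 1.25, at 3.29% and 4.17% in Idh1-R132H and 3.0% and 2.96% in Idh1-WT. With every cell thinned to 3000 UMIs before the rule the share was 2.52% ± 0.264 in Idh1-R132H and 1.89% ± 0.0227 in Idh1-WT, a ratio of 1.33. Among thinned cells with Flt3 and Cd34 UMIs it was 44.9% ± 0.501 in Idh1-R132H and 41.6% ± 2.12 in Idh1-WT, a ratio of 1.08. Thinned stem-gene cells, 8 to 16 per library, had a ratio of 1.59 among kept cells and Dntt cells 1.28, without overlap. Thinned cells with Mki67 and those at or over the Mpo limit had ratios of 0.93 and 1.09, with overlap.

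**Figure D3:**
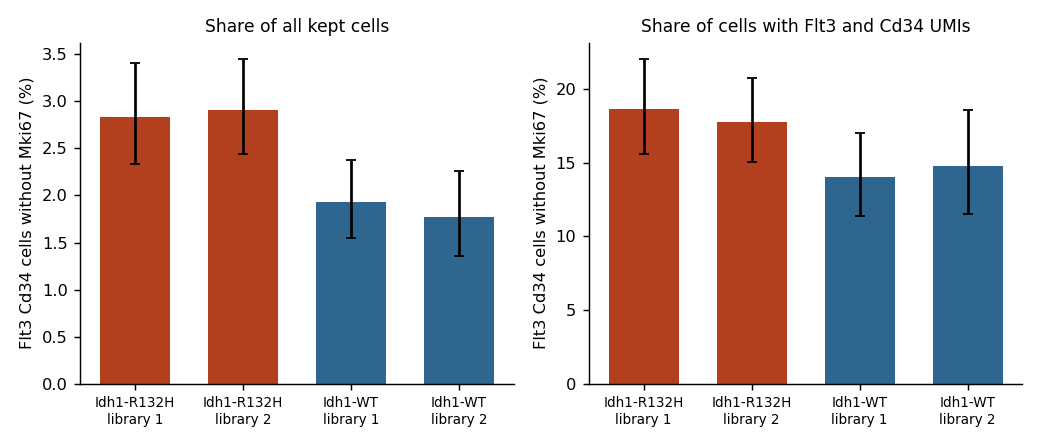
Share of members in percent, by library, among kept cells and among cells with Flt3 and Cd34 UMIs, with exact binomial 95% intervals as bars and Idh1-R132H left of Idh1-WT. Both Idh1-R132H libraries lie above both Idh1-WT libraries in each panel, at 2.84% and 2.91% against 1.93% and 1.77% of kept cells.

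A single gene passed the test between the genotypes in members, which does not show that the others were alike. Counts of the members were summed by library and given to edgeR's quasi-likelihood test, and of 6742 genes tested 1 passed an adjusted p of 0.05, which is 0.0148% of those tested. DESeq2 also called 1, and 24 of its 6742 genes had an unadjusted p below 0.05. By edgeR an unadjusted p below 0.05 was found for 338 genes, 5.01% of those tested. Both Idh1-R132H libraries lay above both Idh1-WT libraries in 1213 genes (18.0%) and below both in 1146 (17.0%), and the median log2 difference over all genes was 0.003.

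Idh1 itself, read at its 3′ end and so without regard to the mutated base, had 20.6 and 18.8 CPM in Idh1-R132H members, against 31.1 and 28.0 CPM in Idh1-WT members. The groups did not overlap, and the log2 difference of −0.60 (SE 0.33) did not pass (edgeR adjusted p = 0.951). It does not check the labels, since a heterozygous point mutation need not change the level. Idh2, the mitochondrial enzyme, had 240 and 261 CPM in Idh1-R132H and 317 and 205 in Idh1-WT, with overlap. Over the 11 tested genes of IDH, TET and DNMT enzymes, 5 lay above 0 and none passed. Gt(ROSA)26Sor, the transcript of the locus where reporters are often placed, had 27.4 and 25.1 CPM in Idh1-R132H members and 7.19 and 2.15 in Idh1-WT members. Its log2 difference was 2.25 (SE 0.48, edgeR adjusted p = 0.198). It passed with no filter on low counts and rests on 24 and 24 UMIs in Idh1-R132H and 6 and 1 in Idh1-WT.

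The called gene was Lyz2, lysozyme 2, an antibacterial enzyme of neutrophils and macrophages. Its counts in members were 616 and 684 UMIs in Idh1-R132H and 319 and 224 UMIs in Idh1-WT, or 703 and 716 CPM in Idh1-R132H and 382 and 483 CPM in Idh1-WT. The groups did not overlap, and the log2 difference was 0.73 (SE 0.10, edgeR adjusted p = 0.00336). Most of it lay in 2 cells. One member of Idh1-R132H 1 held 250 Lyz2 UMIs of its 13123, with 1 Flt3 and 5 Cd34 UMIs, and 1 member of Idh1-R132H 2 held 143 of its 9394, with 1 UMI each of Flt3 and Cd34. The highest cells of Idh1-WT 1 and 2 held 14 and 10.

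The Lyz2-rich member of Idh1-R132H 2 also held 905 UMIs of S100a8, 541 of S100a9, 401 of Ngp, 263 of Camp and 95 of Ltf, which encode granule and cytosol proteins of neutrophils. That of Idh1-R132H 1 held 5 UMIs of S100a8, 7 of S100a9, 3 of Csf1r and 6 of Ms4a6c, and was among the 11 members with the top doublet scores. A member rich in S100a9 was also found in Idh1-WT, where 1 cell held 417 of the 982 S100a9 UMIs of members. The median member had 3 and 4 Lyz2 UMIs in Idh1-R132H and 3 and 3 in Idh1-WT. Lyz2 made up 2958 and 3373 CPM of the barcodes with at most 50 UMIs, taken as free RNA, in Idh1-R132H and 2847 and 2884 in Idh1-WT, above its level in members in every library. When the 2 Lyz2-rich cells were left out, which was decided with the values in view, the Lyz2 log2 difference was 0.22 (edgeR adjusted p = 0.952). No gene passed then, with 337 below an unadjusted 0.05. With the top-scoring doublets left out it was 0.42 and with cells thinned to 3000 UMIs 0.09, and neither passed. In members with Xist and no Y-linked UMI, a fit added after seeing the data, the Lyz2 log2 difference was 1.38 (edgeR adjusted p = 2.6e-22). Its cells were chosen by Xist and Y-linked UMIs alone, with none left out for its Lyz2 UMIs. The part of the 2 Lyz2-rich cells in this value was not tested. Over 19 other settings of the processing, the rule and the libraries used, Lyz2 was above 0 in each and passed in 12, with log2 differences from 0.09 to 1.12 and adjusted p-values (edgeR or DESeq2) from 4.2e-11 to 1.00.

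**Figure D4:**
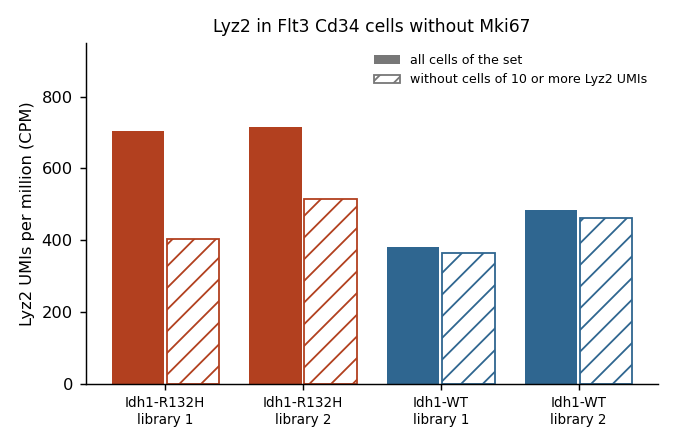
Lyz2 CPM summed over members in each library, Idh1-R132H left of Idh1-WT, for all members (filled bars) and without members of 10 or more Lyz2 UMIs (hatched bars). The filled bars stand at 703 and 716 in Idh1-R132H and 382 and 483 in Idh1-WT, the hatched ones at 404 and 514 in Idh1-R132H and 365 and 461 in Idh1-WT, where the groups overlap.

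The other genes of early myeloid priming went in both directions. Of 19 tested, 9 lay above 0, the median log2 difference was −0.002, Lyz2 passed and 5 had an unadjusted p below 0.05 (DESeq2: 1 passed, 2 below 0.05). Ly6c2, the Ly6C antigen of monocytes, had 123 and 122 CPM in Idh1-R132H and 88.6 and 79.7 in Idh1-WT. Hp, haptoglobin, had 44.5 and 44.0 CPM in Idh1-R132H and 27.5 and 25.9 in Idh1-WT. Clec12a, an inhibitory lectin of myeloid cells, had 41.1 and 41.9 CPM in Idh1-R132H and 61.1 and 92.7 in Idh1-WT. None of these 3 passed, with log2 differences of 0.53, 0.71 and −0.82 and groups that did not overlap. Without Idh1-WT 1 Clec12a passed at −1.17.

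Genes of the type I interferon response were mostly above 0, though none passed. Interferons act through a cell surface receptor on genes whose products restrict viruses, and they are known to bring stem and progenitor cells into cycle. Of 20 tested, 15 lay above 0, and the median log2 difference was 0.40, against 0.003 over all genes. Both Idh1-R132H libraries lay above both Idh1-WT libraries in 11 (55.0%, against 18.0% of all genes) and below in 3 (15%). By edgeR 0 passed and 11 had an unadjusted p below 0.05, by DESeq2 0 passed and 3 did. Over all 6742 genes edgeR had 338 below 0.05 and DESeq2 24.

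Ifitm1, a membrane protein that blocks virus entry, had 853 and 731 CPM in Idh1-R132H members and 580 and 659 in Idh1-WT members (log2 difference 0.36, SE 0.09, edgeR adjusted p = 0.825). Isg15, a ubiquitin-like modifier, had 57.1 and 58.6 CPM in Idh1-R132H and 18.0 and 43.1 in Idh1-WT (1.08, SE 0.30, edgeR adjusted p = 0.875). Ifi27l2a, a small interferon-induced protein, had 43.4 and 40.8 CPM in Idh1-R132H and 19.2 and 21.5 in Idh1-WT (1.06, SE 0.30, edgeR adjusted p = 0.875). The groups did not overlap in these 3 genes. Ifitm3, of the same family as Ifitm1, had 1075 and 1079 CPM in Idh1-R132H and 843 and 970 in Idh1-WT, with no overlap. Irf7, the factor that amplifies interferon production, had 19.4 and 42.9 CPM in Idh1-R132H and 9.58 and 25.9 in Idh1-WT, with overlap.

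The shift rested in part on Idh1-WT 1, since without it the median was 0.16, the log2 difference of Isg15 was 0.41, and Ifi47 passed as lower in Idh1-R132H. Without Idh1-WT 2 Isg15 passed at 1.68 (edgeR adjusted p = 0.00285) and Ifitm1 at 0.44 (edgeR adjusted p = 0.016), while over the fits without 1 library the adjusted p reached 0.958 for Isg15 and 0.947 for Ifitm1. With cells thinned to 3000 UMIs only 12 of the list could be tested, with 6 above 0 and a median of −0.02. In members with Xist and no Y-linked UMI 16 of 18 lay above 0, and Isg15, Ifitm1 and Ifitm3 passed. Rtp4 is both an interferon gene and one of the genes that lead the members against other cells, at 98.2 and 119 CPM in Idh1-R132H members and 59.9 and 99.1 in Idh1-WT members.

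The letters GAAANNGAAA, the core of the interferon-stimulated response element, were searched on both strands of the promoters, 250 bases before to 50 bases after the gene start (RefSeq, GRCm38.p6). Of the 20 tested interferon genes 16 had a promoter in the table, and 6 of these (37.5%) held a match, Isg15, Oas1a, Bst2, Ifitm2, Ifitm3 and Trim30a. Of all tested genes with a promoter 204 of 5261 (3.88%) held one, and 1079 of 27025 (3.99%) in the whole table. Shown are 3 of the 4 genes of the list with the smallest unadjusted p, with matches in capitals. Isg15 lies at chr4:156200769-156201068, minus strand, with 3 overlapping matches from −78 to −57 relative to the start. Ifitm3 lies at chr7:141010695-141010994, minus strand, with 2 matches after the start. Ifitm1 lies at chr7:140967826-140968125, plus strand, with no match in this window.
Isg15: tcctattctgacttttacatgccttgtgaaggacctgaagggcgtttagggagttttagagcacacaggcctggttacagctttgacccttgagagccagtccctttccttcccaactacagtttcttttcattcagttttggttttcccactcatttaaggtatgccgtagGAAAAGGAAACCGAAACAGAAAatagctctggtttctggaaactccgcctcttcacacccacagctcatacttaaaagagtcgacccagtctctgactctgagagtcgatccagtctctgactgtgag
Ifitm3: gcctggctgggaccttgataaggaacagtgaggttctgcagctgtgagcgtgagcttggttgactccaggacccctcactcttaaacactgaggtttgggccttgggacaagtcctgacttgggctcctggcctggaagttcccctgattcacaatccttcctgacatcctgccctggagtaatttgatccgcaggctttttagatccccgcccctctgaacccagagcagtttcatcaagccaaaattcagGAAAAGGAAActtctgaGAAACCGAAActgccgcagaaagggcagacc
Ifitm1: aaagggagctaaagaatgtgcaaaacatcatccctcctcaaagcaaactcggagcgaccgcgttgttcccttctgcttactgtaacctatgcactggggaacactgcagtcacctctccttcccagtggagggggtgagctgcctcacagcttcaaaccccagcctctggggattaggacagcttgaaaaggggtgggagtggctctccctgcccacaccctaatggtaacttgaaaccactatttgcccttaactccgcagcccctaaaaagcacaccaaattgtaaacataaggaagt
A match is a description of the letters. The Isg15 matches lie before the gene start and those of Ifitm3 in the first bases of the transcript.

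Genes of G2 and M phase lay mostly below 0 in Idh1-R132H, with 1 of 20 above 0 and a median log2 difference of −0.34. By edgeR 0 passed and 4 had an unadjusted p below 0.05, by DESeq2 0 and 0, where 24 of all 6742 genes were below 0.05 by DESeq2. Both Idh1-R132H libraries lay below both Idh1-WT libraries in 3 (15%, against 17.0% of all genes). Ube2c, the E2 enzyme of the anaphase complex, had 41.1 and 56.5 CPM in Idh1-R132H and 108 and 47.4 in Idh1-WT. Cdk1, the mitotic kinase, had 79.9 and 78.5 CPM in Idh1-R132H and 116 and 92.7 in Idh1-WT, with no overlap. Idh1-WT 1 was the high library in both, and without it 16 of 20 lay above 0 with a median of 0.15, so the direction rested on that library. Without Idh1-WT 2 Ube2c passed. The 22 S phase genes had a median of −0.03, with 6 above 0, none passing and none with an unadjusted p below 0.05 by either tool. In members with Xist and no Y-linked UMI 0 of 12 G2 and M phase genes lay above 0, with a median of −0.66. There 7 of 21 S phase genes lay above 0, with a median of −0.12, and no gene of either list passed.

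**Figure D5:**
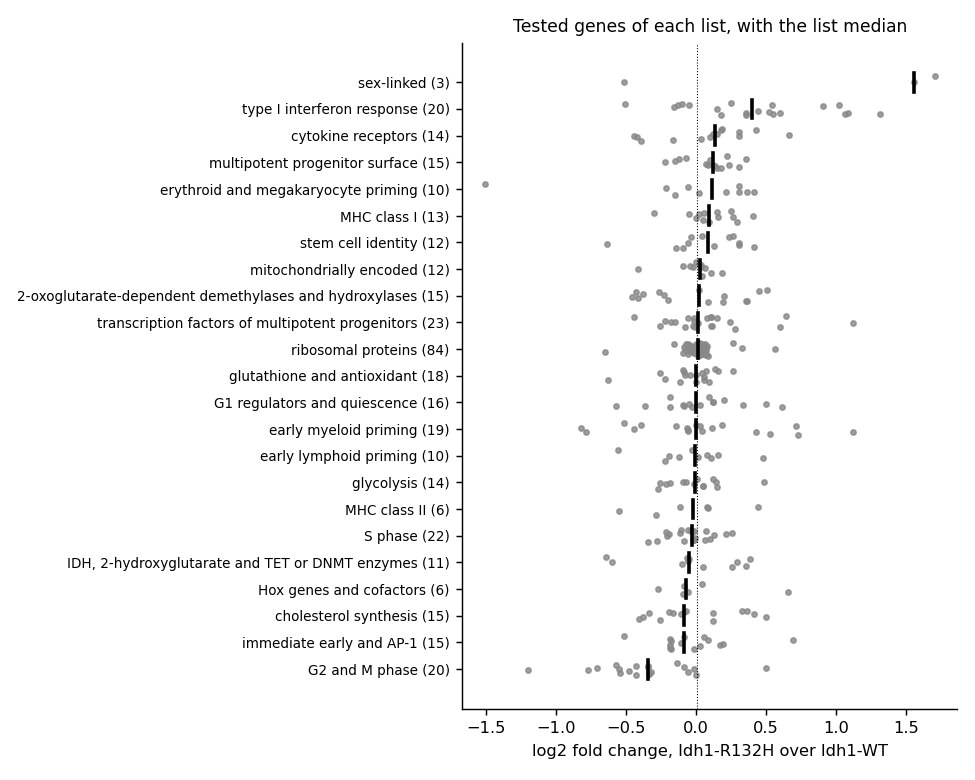
Log2 difference (Idh1-R132H over Idh1-WT) of each tested gene in members, by gene list with its number of genes (points), with the median of each list as a black bar and a dotted line at 0. The interferon list has a median of 0.40 and the G2 and M phase list one of −0.34, and the median of all genes is 0.003.

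Of 23 lists, the sex-linked one had 3 genes tested, none passing by either tool, 2 with an unadjusted p below 0.05 by edgeR and a median of 1.56, beside the unequal mix of cells with Xist and with Y-linked transcripts given above. Its Y-linked gene Eif2s3y had 30.8 and 29.3 CPM in Idh1-R132H members and 3.59 and 21.5 in Idh1-WT members. The 19 lists not yet described, with 331 entries, had no gene that passed by edgeR or by DESeq2, 0 to 2 genes each with an unadjusted p below 0.05 by edgeR, and medians from −0.09 to 0.14. Among multipotent progenitor surface genes 11 of 15 lay above 0, with a median of 0.12. Adgrg1, an adhesion receptor of stem and progenitor cells, had 239 and 275 CPM in Idh1-R132H and 213 and 246 in Idh1-WT. Cd53, a tetraspanin of leukocytes, had 139 and 145 CPM in Idh1-R132H and 97.0 and 157 in Idh1-WT, and Kit, the stem cell factor receptor, 69.6 and 103 in Idh1-R132H and 65.9 and 101 in Idh1-WT. Cd48, which marks the step beyond the stem cell, had 176 and 156 CPM in Idh1-R132H and 164 and 211 in Idh1-WT. The groups overlapped in all 4.

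Transcription factors of multipotent progenitors had 12 of 23 above 0. Erg, an ETS factor needed by stem cells, had 60.5 and 52.3 CPM in Idh1-R132H and 40.7 and 28.0 in Idh1-WT. Lmo4, an adaptor of LIM factors, had 52.5 and 48.1 CPM in Idh1-R132H and 32.3 and 34.5 in Idh1-WT. Neither passed, with log2 differences of 0.64 (SE 0.25) and 0.60 (SE 0.26) and no overlap. MHC class I genes had 10 of 13 above 0 and a median of 0.09, with 7 above without overlap (53.8%, against 18.0% of all genes). Tap1, which carries peptides to them, had 93.6 and 100.5 CPM in Idh1-R132H and 73.1 and 73.3 in Idh1-WT. Early lymphoid genes had 5 of 10 above 0, and Mef2c, a factor of lymphoid priming, had 146 and 159 CPM in Idh1-R132H and 169 and 192 in Idh1-WT, with no overlap.

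Among metabolic and housekeeping lists, glycolysis had 7 of 14 above 0. Gpi1, glucose-6-phosphate isomerase, had 328 and 344 CPM in Idh1-R132H and 407 and 397 in Idh1-WT, and Ldha, lactate dehydrogenase, 549 and 507 in Idh1-R132H and 626 and 597 in Idh1-WT. The groups did not overlap in either, and the log2 differences of −0.26 (SE 0.11) and −0.22 (SE 0.09) did not pass. Cholesterol synthesis had 6 of 15 above 0, glutathione and antioxidant genes 10 of 18, dioxygenases that use 2-oxoglutarate 8 of 15, and ribosomal proteins 48 of 84 at a median of 0.01. Among cytokine receptors 10 of 14 lay above 0, and Tnfrsf1a, a receptor of TNF, had 59.4 and 58.6 CPM in Idh1-R132H and 33.5 and 43.1 in Idh1-WT with no overlap.

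Whether the difference between genotypes was particular to members was tested against related cells of the same libraries, with a term for genotype by class and a block for each library. Against cells of the rule with Mki67, 6 of 6524 genes passed (0.0920%), against those with Dntt 1 of 5891 (0.0170%) and against those with at least 2 stem cell genes 8 of 5431 (0.147%). The term against Dntt cells was that of Lyz2 and did not pass without the 2 Lyz2-rich members. Of the 6 genes against Mki67 cells, 2 were H2-Aa and H2-Ab1, the chains of an MHC class II molecule. H2-Aa had 63.9 and 81.6 CPM in members of Idh1-R132H and 70.7 and 119 in members of Idh1-WT, with overlap. In the Mki67 cells it had 49.5 and 52.4 CPM in Idh1-R132H and 124 and 252 in Idh1-WT, with no overlap. In Idh1-WT the 5 richest Mki67 cells held 84.5% of their H2-Aa UMIs. None of the genes that differed between classes, other than Lyz2, passed within members.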

How the data were processed

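Each of 4 libraries was deposited by the authors as raw UMI counts per gene and barcode, and the submitters' processing notes name Cell Ranger 4.0.0, Seurat and the builds GRCm38 and mm10. All values were whole numbers. Barcodes were filtered and members chosen as described above. The members and gene lists were chosen with earlier results of these data known. Counts were summed per library and tested with edgeR 4.0.16 in R 4.3.3 (TMM factors, filterByExpr, robust quasi-likelihood fit, Benjamini-Hochberg adjustment over all genes, threshold 0.05), on the groups as labelled. For differences between classes, genotype by class was tested with each library as its own block. Shares were tested with an exact permutation test in scipy 1.17.1, and shares of cells have exact (Clopper-Pearson) 95% intervals. The gene test was checked on simulated counts with a shared dispersion. It recovered 3.70% of genes changed by a log2 difference of 0.5, 55.2% at 1 and 95.3% at 2, with 6 false calls. The genotype by class test against Mki67 cells recovered 44.7% at a log2 difference of 2, with 4 false calls.

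Scrublet in scanpy 1.11.5 called 111 doublets (0.682% of kept cells), which were kept, and leaving out the 535 top-scoring cells, 11 of them members, was an alternative. Retnlg-high cells had at least 20 Retnlg UMIs per 10000. The alternatives were RLE factors, library totals, DESeq2 1.42.0, no filter, 300 or 1000 UMIs as the minimum per cell, a mitochondrial limit of 5%, cells thinned to 3000 UMIs, 4 changes of the rule, equal numbers of cells, the replicate number as a block, and leaving out each library. Members with Xist alone, crossed numbers and leaving out the 2 members with 100 or more Lyz2 UMIs were added after seeing the data. The text names called genes, up to 4 genes of each list with the smallest p, fixed genes, genes of the rule, markers, the 30 genes that lead the members among those with at least 50 CPM, and genes whose difference depended on the class. Genes named for their spread over cells were chosen after their values were seen. Features absent from the files were Ighm, Mx2, Gas5, Trbc1 and Trbc2 and are not analysed here. Some items are not reported here.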

Additional observations from a re-analysis of the deposited data

Results flagged for a closer look

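The results here are genes whose difference between genotypes was not the same in members as in related cells of the same libraries, by edgeR's genotype by class term at an adjusted p of 0.05. Each value is the log2 difference in members minus that in the other class.

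Against cells of the rule with Mki67, the value was 0.72 for Cst3 (cystatin C), 0.44 for Tmsb10, 1.16 for H2-Ab1, 1.45 for H2-Aa, −0.87 for Cbx3 (a heterochromatin protein) and −2.41 for Slc39a1 (a zinc transporter). In Idh1-WT the 5 richest Mki67 cells held 46.5% of the Cst3, 58.2% of the H2-Ab1 and 90.9% of the Slc39a1 UMIs of that class. Cbx3 had 212 and 210 CPM in members of Idh1-R132H and 222 and 250 in those of Idh1-WT, and 387 and 309 CPM in Mki67 cells of Idh1-R132H and 230 and 180 in those of Idh1-WT.

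Against cells with Dntt, the value was 1.02 for Lyz2, with 348 and 402 CPM in Dntt cells of Idh1-R132H and 305 and 695 in those of Idh1-WT.

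Against cells with at least 2 stem cell genes, the value was 2.68 for Ltf, 1.92 for Lcn2 and 0.88 for S100a9, which are neutrophil genes, 2.99 for Ccl5, 3.13 for Nupr1, 0.34 for Actb, −0.62 for Xist and −1.50 for Ap3s1. Without the 2 Lyz2-rich members the edgeR adjusted p was 0.336 for Lcn2, 0.996 for S100a9 and 0.0559 for Nupr1. In Idh1-WT all Ccl5 UMIs of the stem-gene cells lay in 4 cells. Each of the 15 values failed to pass in at least 1 of the 4 fits that left out a library, and the cause was not tested.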

How the results depend on the processing

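The share of members was higher in Idh1-R132H under every alternative run. The ratio was 1.26 with the cells with Flt3 and Cd34 UMIs as the denominator, and 1.08 with that denominator in cells thinned to 3000 UMIs. Among cells with a Kit UMI it was 1.25. Among kept cells it ran from 1.33 (cells thinned to 3000 UMIs) to 1.76 (no UMI of Top2a, Cdk1 or Ccnb1), and from 1.49 to 1.63 with 1 library left out. The count of genes called in members was 9 with no filter on low counts, 8 without Top2a, Cdk1 or Ccnb1 UMIs and 11 in Xist-carrying members. It was 0 with top-scoring doublets left out, with cells thinned, with the Mpo limit at 5, with no stem cell gene allowed and without the 2 Lyz2-rich members, where edgeR gave 333, 151, 240, 197 and 337 genes with an unadjusted p below 0.05. With 1 library left out it ran from 6 (without Idh1-R132H 2) over 13 (without Idh1-R132H 1) and 15 (without Idh1-WT 1) to 20 (without Idh1-WT 2), with the lone library of a group assumed to vary like the other group.

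With the replicate number as a block 13 genes passed, Gt(ROSA)26Sor among them, and with the numbers crossed 17. Same-numbered libraries deviated together with a correlation of 0.0144, and nothing in the labels pairs them.

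With 1 library left out, the number of genes whose genotype effect differed from that in Mki67 cells ran from 2 (without Idh1-R132H 1) to 13 (without Idh1-WT 2, and 12 without Idh1-WT 1). For Dntt cells it ran from 1 to 18 (without Idh1-WT 1, and 3 without Idh1-R132H 1 and 4 without Idh1-WT 2), and for stem-gene cells from 2 (without Idh1-WT 1, and 4 and 5 without Idh1-R132H 1 and 2) to 12. Against Dntt cells 0 passed with RLE factors (269 with an unadjusted p below 0.05) and 0 without the Lyz2-rich members (273), and against stem-gene cells 5 passed without them.

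Some uncalled log2 differences changed sign. Ly6a was −0.093 with thinned cells and ran from −0.0083 to 0.56 with 1 library left out. Cd53 was −0.18 with thinned cells, −0.041 with no stem cell gene and ran from −0.16 to 0.55. Cd48 was 0.066 with thinned cells, 0.046 with the Mpo limit at 5, 0.26 without Top2a, Cdk1 or Ccnb1, 0.070 in Xist-carrying members, and ran from −0.37 to 0.0090. Kit was −0.20 with thinned cells, −0.16 without Top2a, Cdk1 or Ccnb1, −0.040 at equal cell numbers, and ran from −0.24 to 0.39. Idh2 ran from −0.35 to 0.27. The cause was not tested. With 62 to 129 members per library, depth limits what a gene with few UMIs can show.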

Other observations

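Chosen after their values were seen, the genes next to Lyz2 by p in members were Serpina3g, a serine protease inhibitor, and Gm10076. Serpina3g had 150 and 156 CPM in Idh1-R132H and 86.2 and 86.2 in Idh1-WT, a log2 difference of 0.82 (SE 0.16, edgeR adjusted p = 0.112). Gm10076 had 2321 and 2158 CPM in Idh1-R132H and 2733 and 2694 in Idh1-WT, a log2 difference of −0.28 (SE 0.06, edgeR adjusted p = 0.112). The groups did not overlap in either gene.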
